A study of Mus musculus with 6 samples.

Results

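The p53 response was followed through 10 genes, namely Trp53, which encodes p53, and its target genes Mdm2, Ccng1, Cdkn1a, Plk2, Bax, Bbc3, Phlda3, Sesn2 and Zmat3. They were chosen by gene symbol from the 22295 genes of the count table, and all 10 were found there. RNA was measured in 6 libraries of keratinocytes of the back skin of FVB mice, sorted for GFP, 3 from K19 Itga3 WT mice (K19(Cre-ERT); mTmG) and 3 from K19 Itga3 KO mice (K19(Cre-ERT); mTmG; Itga3 fl/fl). All mice of both groups received tamoxifen at 6 weeks of age, 1 dose of 30 µg DMBA at 7 weeks and then 12.34 µg TPA repeatedly for 2 weeks. The K19 promoter drives the Cre recombinase in hair bulge (HB) cells, the stem cell compartment of the hair follicle, so GFP marks cells that descend from Cre-active HB cells. The sort was thus aimed at descendants of K19-expressing cells in which Cre was active. In KO mice these cells were set to lose integrin α3, a receptor for laminin. Transcripts of other cell types were also detected, as given below.

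DMBA is a carcinogen whose metabolites form bulky adducts on DNA, and TPA is a tumor promoter that drives keratinocytes to divide. After DNA damage, p53 is stabilized mainly at the protein level and switches on genes for cell cycle arrest, repair, apoptosis and its own inhibition. The mRNA of Trp53 need not follow the activity of its protein, whereas the mRNA of the targets is closer to that activity, although most targets also answer to other transcription factors. Skin without DMBA and TPA was not analysed here, so the values describe the state of these genes at 1 time point in each genotype and not their induction by the carcinogen.

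p53 binds a full site made of 2 half-sites, each with 3 purines, a C, a pair of A or T bases, a G and 3 pyrimidines, and this pattern reads the same on both strands. RefSeq promoter windows (mouse build GRCm38.p6, 250 bases before to 50 after a start) were available for 9 of the 10 genes, all but Zmat3. They were searched for 2 half-sites without a spacer, with the 4 C and G core bases intact and at most 2 mismatches at the other bases. This rule was set after the windows had been seen. A full site was found for Cdkn1a and Ccng1, each with 1 mismatch, and the same search of 29 other p53 targets with a window found Rps27l and Gtse1. With at most 1 mismatch, 22 of all 27025 genes with a window (0.0814%) held a site, and with at most 2 mismatches 106 genes (0.392%). The 4 sites are shown because they are the only such matches among the p53 targets examined, and capitals mark the core C and G of each half-site:
Cdkn1a, chr17:29090928-29090947, plus strand, first base 51 before the start: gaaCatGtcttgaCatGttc
Ccng1, chr11:40755462-40755481, minus strand, first base 195 before the start: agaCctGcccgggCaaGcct
Rps27l, chr9:66946296-66946315, plus strand, first base 117 before the start: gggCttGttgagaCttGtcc
Gtse1, chr15:85859945-85859964, plus strand, first base 1 before the start: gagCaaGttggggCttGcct

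The 250 bases before the start are given for Cdkn1a and Ccng1, with the full site in capitals, and for Plk2, the member that passed the test between genotypes and in whose window the search found no full site. A match is a run of letters and not a measured binding event, and a window without a match says nothing of sites elsewhere. For Cdkn1a, RefSeq gives a pair of starts, and the site lies before the upstream one:
Cdkn1a, chr17:29090729-29090978, plus strand: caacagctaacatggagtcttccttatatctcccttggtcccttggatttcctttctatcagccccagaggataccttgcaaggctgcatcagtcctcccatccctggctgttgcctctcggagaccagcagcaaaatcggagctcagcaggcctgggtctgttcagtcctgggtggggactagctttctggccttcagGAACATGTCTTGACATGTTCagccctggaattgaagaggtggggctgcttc
Ccng1, chr11:40755287-40755536, minus strand: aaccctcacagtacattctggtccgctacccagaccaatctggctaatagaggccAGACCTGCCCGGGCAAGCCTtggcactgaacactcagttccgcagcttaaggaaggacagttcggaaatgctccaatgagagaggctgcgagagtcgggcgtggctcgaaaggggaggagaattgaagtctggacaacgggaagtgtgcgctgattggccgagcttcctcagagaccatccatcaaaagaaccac
Plk2, chr13:110394794-110395043, plus strand: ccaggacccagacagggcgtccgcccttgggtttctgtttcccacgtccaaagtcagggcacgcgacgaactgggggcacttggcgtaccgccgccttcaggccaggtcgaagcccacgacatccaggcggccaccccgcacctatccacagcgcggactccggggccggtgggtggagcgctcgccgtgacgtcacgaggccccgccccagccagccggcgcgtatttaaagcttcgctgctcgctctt

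Depth was 20578309 to 23670507 counts per library, so that 3 counts, taken as the floor, equal 0.128 to 0.145 CPM (counts per 1e6 counts of the library, scaled by TMM factors), for counting error only. Letters a, b and c name the 3 libraries of each genotype as their columns follow one another, and they pair nothing across genotypes. Each column header names its own mouse. Itga3, the targeted gene, was at 298 ± 63.9 CPM in WT and 129 ± 5.22 CPM in KO (SD, n = 3 each), a log2 difference of −1.20 (SE 0.13, adjusted p = 0.00283), and every KO library lay below every WT library. Its adjusted p was 0.130 without WT c and 0.0934 without KO a. Throughout, a gene passed the test with a Benjamini-Hochberg adjusted p below 0.05 in edgeR's quasi-likelihood test of KO against WT over 21681 genes, and differences are KO minus WT on the log2 scale.

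All 10 genes of the p53 response were higher on average in KO than in WT keratinocytes, where 50% of all tested genes were higher. The difference passed the test for 1 of them, Plk2, a rise to 162% of the WT mean, against 0.673% of all tested genes that passed in either direction and 0.461% that were higher in KO. Cdkn1a, the cell cycle inhibitor p21, stood at 165% of its WT mean and just missed the threshold. The median log2 difference of the 10 genes was 0.27, beside 0.00 over all tested genes. At an unadjusted p below 0.05, 6 of the 10 were higher in KO (Cdkn1a, Plk2, Bax, Bbc3, Sesn2 and Zmat3), against 5.58% of all tested genes. This count was 3 without WT c, 4 without KO c and 5 or 6 without any other library. For 6 (Trp53, Cdkn1a, Plk2, Bax, Sesn2 and Zmat3), every KO library lay above every WT library, which held for 8.03% of all tested genes. Among the 8575 genes with a mean log2 CPM above 4, a range that holds all of the 10 but Bbc3, the corresponding shares were 1.2% that passed in either direction, 55.3% higher in KO, 9.13% at an unadjusted p below 0.05 and 12.6% without overlap.

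**Figure D1:**
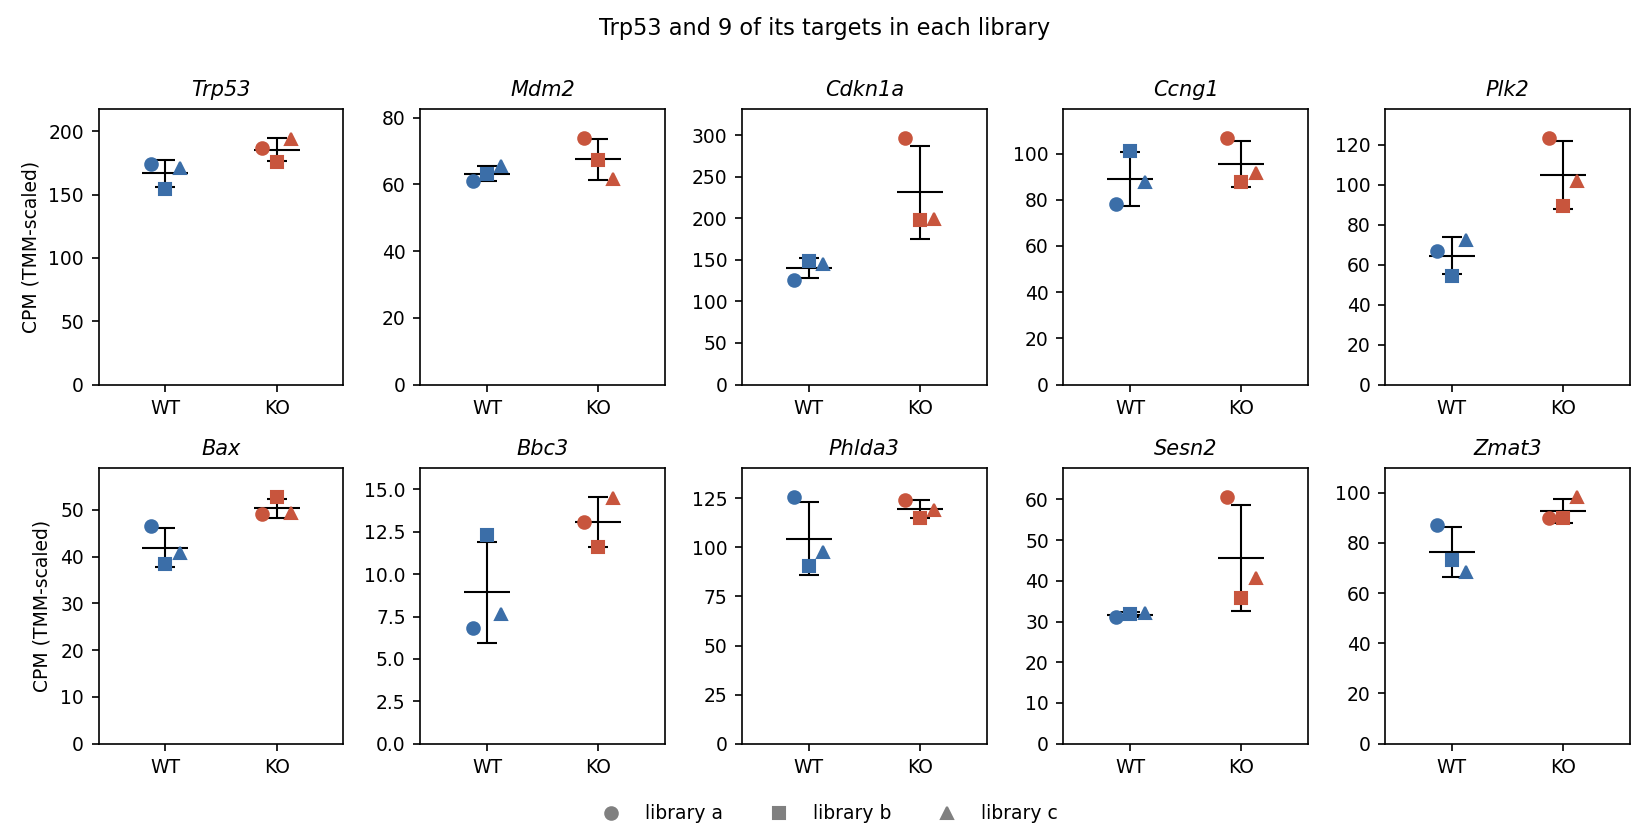
Level of Trp53 and 9 of its targets in each library, in CPM scaled by TMM factors, with every axis starting at 0. Blue symbols are the 3 WT and red symbols the 3 KO libraries, and the bars give the mean and SD (n = 3). The KO symbols lie above all WT symbols for Trp53, Cdkn1a, Plk2, Bax, Sesn2 and Zmat3 and mix with them for Mdm2, Ccng1, Bbc3 and Phlda3.

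The calls were few and rested on single libraries and on the tool. With limma-voom, the study's tool, 0 of the 10 genes passed (6 at an unadjusted p below 0.05, and 0.111% of all genes passed), while with DESeq2 2 passed, Plk2 and Cdkn1a (3.99% of the 13690 genes with an adjusted p). Leaving out 1 library at a time gave between 0 and 2 passing genes, and all 10 stayed higher in KO in every one of these fits. An exact two-sided permutation test of single genes cannot go below p = 0.1 with 3 against 3 libraries.

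At the head of the response, Trp53 (ENSMUSG00000059552, chr11:69580359-69591873, GRCm38) was at 175, 154 and 171 CPM in the WT libraries (a, b and c in turn, here and for the other genes) and at 187, 176 and 194 CPM in the KO libraries. The groups did not overlap, but the lowest KO library and the highest WT library were close. The log2 difference was 0.15 (SE 0.09, 95% interval −0.04 to 0.35) and did not pass (adjusted p = 0.577), and without WT b the difference was 0.10. A processed pseudogene, Trp53-ps, shares a stretch of 353 bases at 97.7% identity with Trp53 and has no row in the count table, so the counts of Trp53 are somewhat uncertain. Trp53 and Ccng1 lie on chromosome 11, as does the floxed Itga3, at 25.5 and 54.3 Mb from it.

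Mdm2 and Ccng1 belong to the feedback arm. Mdm2 is the ubiquitin ligase that marks p53 for degradation and is itself a p53 target, and Ccng1 (cyclin G1) recruits a phosphatase that acts on Mdm2. Mdm2 (ENSMUSG00000020184, chr10:117688888-117710758) was at 61.1, 63.1 and 65.4 CPM in WT and at 73.8, 67.3 and 61.5 CPM in KO. KO c lay below WT b and WT c, so the groups overlapped, and the difference of 0.10 (SE 0.09, 95% interval −0.11 to 0.30) did not pass (adjusted p = 0.681). Without KO a it was 0.03, and without KO c 0.16. Ccng1 (ENSMUSG00000020326, chr11:40748552-40755311) was at 78.1, 101 and 87.9 CPM in WT and at 107, 87.7 and 91.8 CPM in KO. WT b was higher than KO b and KO c. Its difference was also 0.10 (SE 0.11, 95% interval −0.15 to 0.35, adjusted p = 0.732), which was 0.01 without KO a, 0.02 without WT a, 0.17 without KO b and 0.20 without WT b. Its promoter window holds a full site, as does that of Cdkn1a.

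Cdkn1a and Plk2 belong to the arrest arm and showed the largest differences of the 10 genes. Cdkn1a encodes p21, which inhibits cyclin-dependent kinases and halts the cell cycle, and Plk2 is a polo-like kinase of checkpoint and centriole control. Cdkn1a (ENSMUSG00000023067, chr17:29090979-29100722) was at 126, 149 and 145 CPM in WT and at 296, 197 and 199 CPM in KO. All KO libraries were higher than all WT libraries, and KO a stood well above KO b and KO c. The log2 difference was 0.72 (SE 0.15, 95% interval 0.40 to 1.05), with an adjusted p of 0.0567 in edgeR, 0.147 in limma-voom and 0.0023 in DESeq2. Without KO a it was 0.50 (adjusted p = 0.250), with the KO mean at 142% of the WT mean, and without KO b it was 0.83 and passed (adjusted p = 0.0417).

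Plk2 (ENSMUSG00000021701, chr13:110395044-110400844) was at 67.0, 54.6 and 72.2 CPM in WT and at 123, 89.3 and 102 CPM in KO. The groups were clearly apart, and KO a was again the highest library. Plk2 rose by 0.70 on the log2 scale (SE 0.13, 95% interval 0.41 to 0.99, adjusted p = 0.0447 in edgeR). The adjusted p was 0.132 in limma-voom and 0.0011 in DESeq2. The call was lost without WT b (0.59, adjusted p = 0.0895), WT c (0.79, 0.363), KO a (0.57, 0.328) or KO c (0.72, 0.145), where each pair of values gives the log2 difference and its adjusted p. It was kept without WT a or KO b.

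Bax and Bbc3 belong to the apoptosis arm. Bax forms pores in the outer mitochondrial membrane, and Bbc3 (PUMA) is a BH3-only protein that frees Bax to act. Bax (ENSMUSG00000003873, chr7:45461695-45466898) was at 46.5, 38.5 and 40.8 CPM in WT and at 49.1, 52.7 and 49.4 CPM in KO. The KO libraries lay close together above all WT libraries, with a difference of 0.26 (SE 0.10, 95% interval 0.04 to 0.49, adjusted p = 0.335). Bax shares 194 identical bases with Gm45808, which has no row in the count table. Bbc3 (ENSMUSG00000002083, chr7:16309616-16318205), the least abundant of the 10 genes per exon length, was at 6.84, 12.3 and 7.63 CPM in WT and at 13.1, 11.6 and 14.5 CPM in KO. WT b reached the KO range and lay above KO b. The difference was 0.55 (SE 0.21, 95% interval 0.09 to 1.01, adjusted p = 0.325), and without WT b it was 0.85 (adjusted p = 0.0593).

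The remaining 3 genes act on growth signaling, metabolism and RNA. Phlda3 competes with Akt for membrane lipids and so restrains it, Sesn2 restrains mTORC1 and answers to several kinds of stress besides p53, and Zmat3 is an RNA-binding zinc finger protein. Phlda3 (ENSMUSG00000041801, chr1:135766119-135769136) was at 125, 90.6 and 97.5 CPM in WT and at 124, 115 and 119 CPM in KO. WT a was the highest of all 6 libraries, and the difference was 0.19 (SE 0.12, 95% interval −0.07 to 0.45, adjusted p = 0.593). Without WT a the difference was 0.35 (adjusted p = 0.0821), and without WT b 0.10 (adjusted p = 0.792). Sesn2 (ENSMUSG00000028893, chr4:132492032-132510501) was at 31.0, 31.7 and 32.2 CPM in WT and at 60.5, 35.8 and 40.8 CPM in KO. The WT libraries were nearly equal, all KO libraries were higher, and KO a stood apart. The difference was 0.53 (SE 0.17, 95% interval 0.17 to 0.89, adjusted p = 0.203) and fell to 0.28 without KO a (adjusted p = 0.638). Zmat3 (ENSMUSG00000027663, chr3:32334796-32365678) was at 87.3, 73.3 and 68.5 CPM in WT and at 89.8, 89.9 and 98.1 CPM in KO. WT a came close to the KO libraries, and the difference was 0.28 (SE 0.10, 95% interval 0.05 to 0.51, adjusted p = 0.310).

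**Figure D2:**
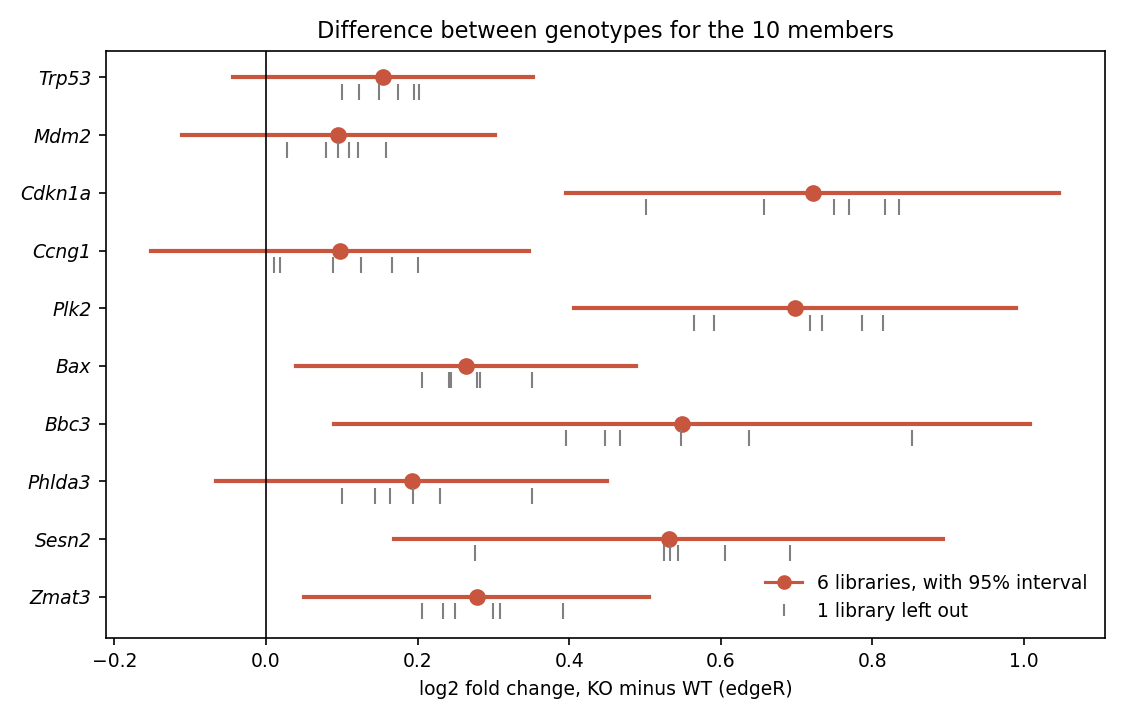
Log2 difference between genotypes (KO minus WT, edgeR) of the 10 genes, on a linear axis. Points and bars give the estimate from 6 libraries with its 95% interval, and grey ticks give the estimate with 1 library left out. All points and ticks lie above 0, the intervals of Trp53, Mdm2, Ccng1 and Phlda3 include 0, and those of Cdkn1a and Plk2 lie farthest from it.

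Across libraries, the 10 genes did not move as a block. KO a held the highest value for 5 of them (Mdm2, Cdkn1a, Ccng1, Plk2 and Sesn2), KO c for 3, KO b for 1 and WT a for 1. The lowest value was in WT a for 5 genes, WT b for 4 and WT c for 1, and never in a KO library. For comparison, KO a was the highest library for 27%, and WT a, WT b and WT c the lowest for 14.5%, 35.2% and 11.5%, of the genes with a mean log2 CPM above 4. The summed level of the 10 genes was 769 to 804 CPM in WT and 923 to 1123 CPM in KO, with KO a at the upper end.

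Compared per exon length, as RPKM (CPM divided by the exon length in kilobases), Phlda3 was the most abundant of the 10, at 67.1 ± 11.8 in WT and 76.6 ± 2.92 in KO (SD, n = 3 each). Cdkn1a followed at 39.4 ± 3.54 and 65.02 ± 15.9 RPKM, Trp53 at 41.2 ± 2.71 and 45.9 ± 2.21, Bax at 26.6 ± 2.62 and 32.0 ± 1.27, and Ccng1 at 25.4 ± 3.32 and 27.2 ± 2.83. Cdkn1a and Trp53 thus changed places between the genotypes, with overlapping libraries in WT and separate ones in KO. Below them came Plk2 at 14.4 ± 2.02 and 23.3 ± 3.82 RPKM, Mdm2 at 12.4 ± 0.423 and 13.3 ± 1.21, Sesn2 at 9.11 ± 0.169 and 13.2 ± 3.75, Zmat3 at 6.68 ± 0.855 and 8.10 ± 0.419, and Bbc3 at 4.204 ± 1.40 and 6.15 ± 0.689. In WT, the libraries of Bax and Ccng1 and those of Plk2 and Mdm2 overlapped. In KO, overlaps were found for Phlda3 with Cdkn1a, Ccng1 with Plk2, and Mdm2 with Sesn2. All 10 were well expressed, with Phlda3 at percentile 97.3 of all tested genes in WT and Bbc3 at percentile 61.9.

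**Figure D3:**
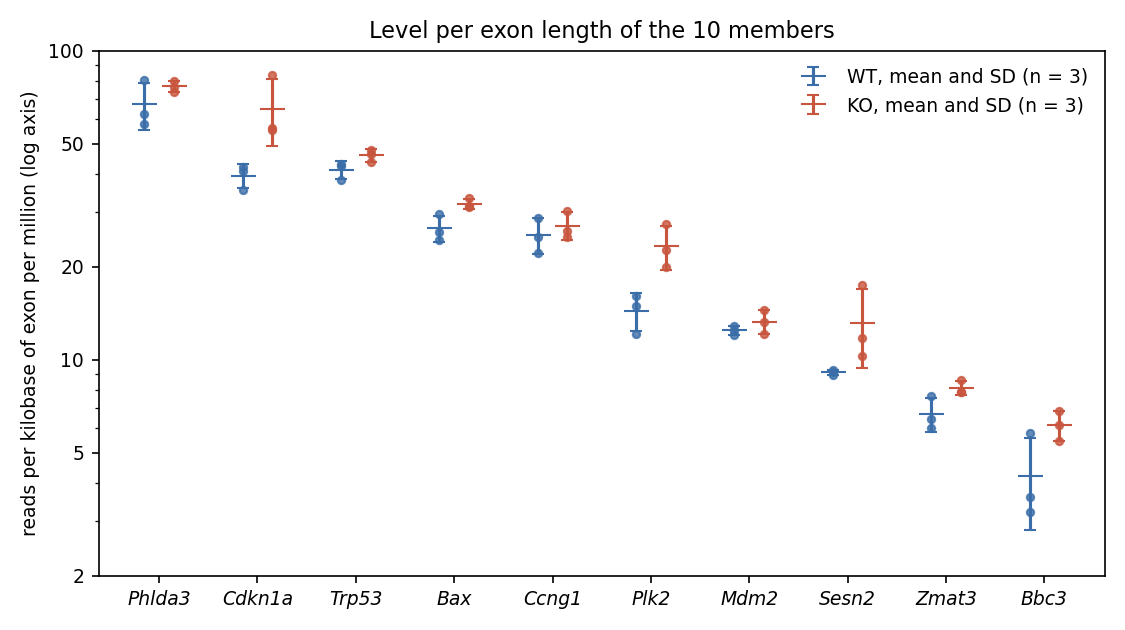
Level of the 10 genes per exon length, in RPKM on a log axis, ordered by the mean over both genotypes. Dots are libraries and bars the mean and SD (n = 3), blue for WT and red for KO. Phlda3 is at the top and Bbc3 at the bottom in both genotypes, and Cdkn1a lies near Trp53 in WT and above it in KO.

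The genes whose pattern over the 6 libraries lay nearest to that of Cdkn1a, among 8566 genes with a mean log2 CPM above 4, were Gsdma3, Fam43a and Cish. Their root mean square distance from Cdkn1a was 0.04, 0.07 and 0.09 log2 units, beside a median of 0.41 over those genes. A gene that did not vary over the libraries would lie at 0.41 as well. These genes were picked by their values in the same 6 libraries, so differences near that of Cdkn1a follow from the choice. Gsdma3, a gasdermin of the epidermis and hair follicle, differed by 0.74 (adjusted p = 0.0447) and passed, whereas Fam43a (0.77, adjusted p = 0.0546) and Cish, an inhibitor of cytokine signaling (0.66, adjusted p = 0.0708), did not. Nearest to Mdm2 were 3110043O21Rik, Ddx3x and Cpeb4, at 0.02, 0.02 and 0.03 log2 units, beside a median of 0.15 and 0.09 for a gene that did not vary.

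A list of 38 other p53 targets was examined next, of which 37 were matched in the table (Tigar as 9630033F20Rik; Trp53cor1 was not matched). Only 1 passed the test, Gadd45a, and 21 were higher and 16 lower in KO, with a median log2 difference of 0.04. At an unadjusted p below 0.05, 8 were higher and 7 lower, beside 11.5% of all tested genes in either direction. In 7 of the 37 every KO library lay above every WT library, beside 8.03% of all tested genes, and in 4 every KO library lay below, beside 8.23%. The wider list was thus divided in direction, unlike the 10 genes above, and its counts follow by role.

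All 6 arrest genes of the list were higher on average in KO, beside 50% of all tested genes, with a median of 0.46, and 1 passed. Gadd45a, a stress sensor that binds Cdk1 and PCNA, was at 10.0, 6.00 and 8.77 CPM in WT and at 15.1, 14.7 and 20.9 CPM in KO. Every KO library was above every WT library, and Gadd45a rose by 1.03 (SE 0.20, adjusted p = 0.0472). The call was lost in limma-voom (0.135) and without WT b, WT c, KO a or KO c (adjusted p 0.0944 to 0.368), and DESeq2 gave 0.000813. Sfn (14-3-3σ), which holds back entry into mitosis and is abundant in keratinocytes, was at 1232, 939 and 1267 CPM in WT and at 1802, 1387 and 1444 CPM in KO. Its libraries did not overlap either, but the difference of 0.43 (SE 0.14, adjusted p = 0.224) did not pass. Btg2 (0.52, adjusted p = 0.176) and Plk3 (0.49, adjusted p = 0.206), named after their values were seen, did not pass.

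Among 15 other apoptosis targets, 9 were higher and 6 lower in KO, with a median of 0.05, and 0 passed in edgeR. At an unadjusted p below 0.05 in edgeR, 3 were higher and 2 lower, beside 11.5% of all tested genes in either direction. Pmaip1 (NOXA), a BH3-only protein, was at 14.6, 15.1 and 15.6 CPM in WT and at 35.9, 18.9 and 27.1 CPM in KO. The KO libraries were all higher but far from each other, and the difference of 0.86 (SE 0.19, adjusted p = 0.0719) missed the threshold, while DESeq2 gave 0.00559 and limma-voom 0.208. Perp, a desmosomal protein of the epidermis that p53 and p63 switch on, was the most abundant target per exon length, at 1559 ± 183 RPKM in WT and 1616 ± 17.1 in KO, and differed by 0.05 (adjusted p = 0.873).

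Of 7 repair targets, 5 were lower and 2 higher in KO, with a median of −0.23, and 0 passed in edgeR, limma-voom or DESeq2. At an unadjusted p below 0.05 in edgeR, 4 were lower (Xpc, Ddb2, Ercc5 and Rrm2b) and 0 higher. This level was reached by 11.5% of all tested genes in either direction. These 4 genes were named after their values were seen. The contrast between repair and arrest targets was not tested. Xpc and Ddb2 recognize bulky DNA lesions for nucleotide excision repair, the pathway that removes DMBA adducts. Xpc was at 64.8, 65.7 and 59.6 CPM in WT and at 49.8, 53.7 and 57.9 CPM in KO. Its groups did not overlap, with a difference of −0.24 (SE 0.09, adjusted p = 0.361). Ddb2 differed by −0.28 (SE 0.12, adjusted p = 0.411). Both feedback targets, Ppm1d and Trp53inp1, named after their values were seen, were lower in KO (−0.32 and −0.30, adjusted p = 0.449 and 0.638).

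Of 6 targets of metabolism and stress, 3 were higher and 3 lower in KO. The 6 include Gdf15, whose mean was below the floor of 3 counts in both genotypes. Ddit4, an inhibitor of mTORC1 that also answers to hypoxia and glucocorticoids, was at 80.4, 69.8 and 62.7 CPM in WT and at 149, 96.7 and 103 CPM in KO. No libraries overlapped, KO a was the highest, and the difference of 0.71 (SE 0.15, adjusted p = 0.0669) missed the threshold (0.167 in limma-voom, 0.00515 in DESeq2). Sesn1, a relative of Sesn2, was at 139, 145 and 132 CPM in WT and at 114, 112 and 90.1 CPM in KO. This gene, named after its values were seen, was below the WT range in all KO libraries, opposite to Sesn2, with a difference of −0.40 (SE 0.10, adjusted p = 0.124, and 0.039 in DESeq2). Gpx1, a glutathione peroxidase and the third most abundant target per exon length, was at 195 ± 16.0 RPKM in WT and 200.1 ± 17.3 in KO and differed by 0.04 (adjusted p = 0.909).

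**Figure D4:**
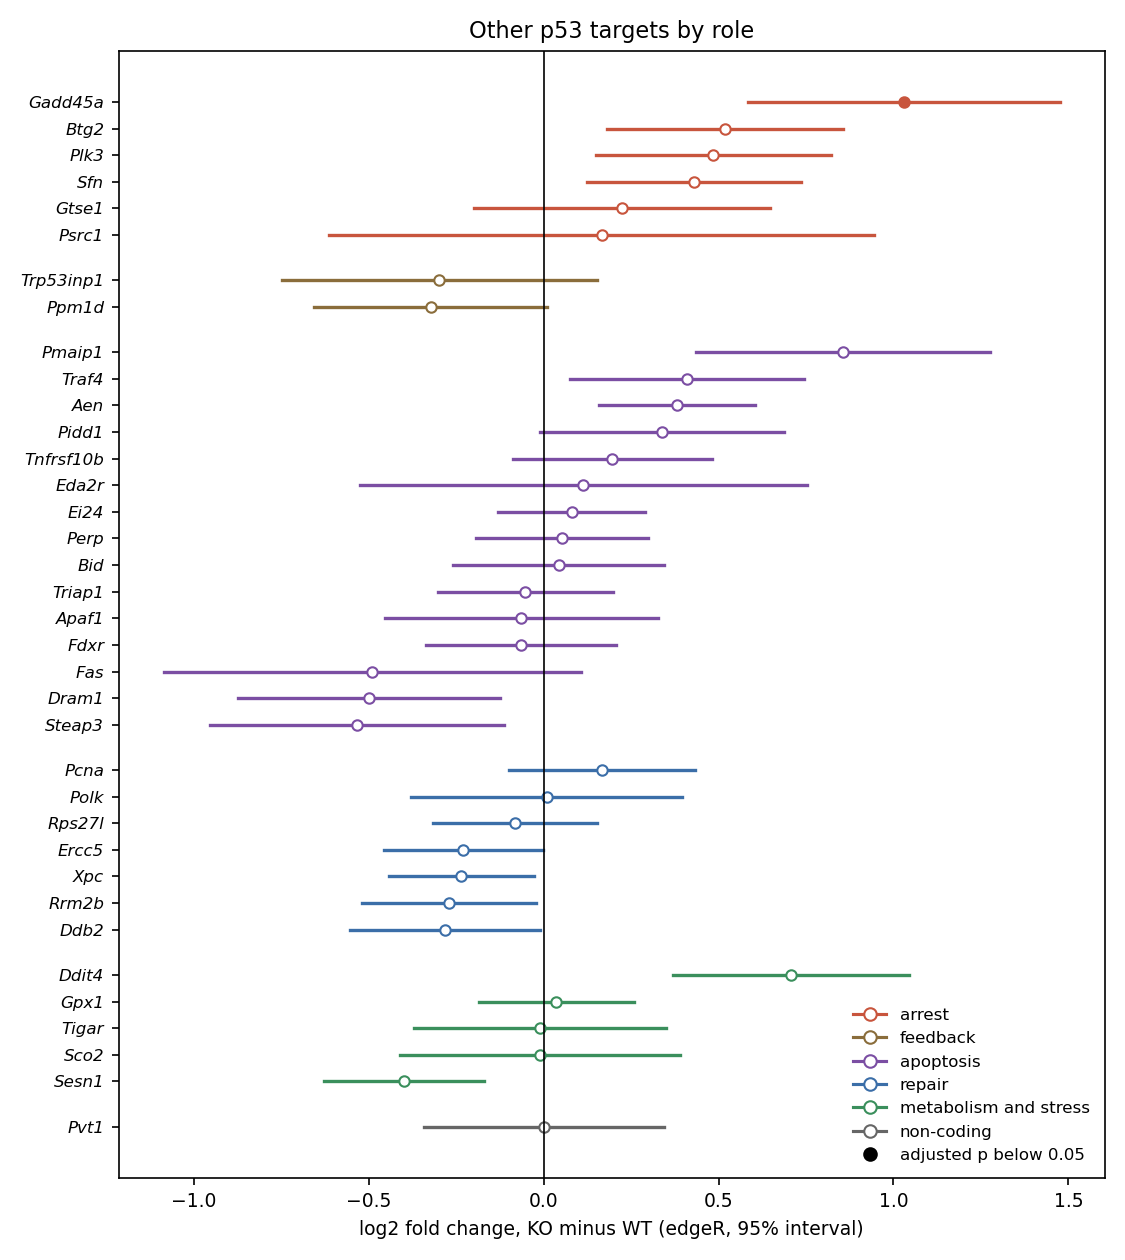
Log2 difference between genotypes (KO minus WT, edgeR) of other p53 targets, with 95% intervals and grouped by role. The filled point, Gadd45a, has an adjusted p below 0.05. The points of arrest genes lie above 0, with the intervals of Gtse1 and Psrc1 including it, and those of 5 of 7 repair genes lie below it. Gdf15, at 0.06 CPM in WT and 0.09 CPM in KO, is not drawn.

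Of 21 regulators of p53, 0 passed in edgeR (1 at an unadjusted p below 0.05), and 0 passed in limma-voom and in DESeq2. In all, 13 were higher and 8 lower, with a median of 0.01. The smallest p values belonged to Usp10, which removes ubiquitin from p53 (0.20, SE 0.09, adjusted p = 0.427), Mdm4, an inhibitor related to Mdm2 (−0.25, SE 0.11, adjusted p = 0.436), and Cop1, a ubiquitin ligase listed as Rfwd2 (0.16, SE 0.08, adjusted p = 0.505). Trp63, whose protein p63 maintains basal keratinocytes and shares binding sites with p53, was the most abundant per exon length, at 144 ± 15.5 RPKM in WT and 145 ± 11.4 in KO. Next came Usp7, a ubiquitin protease that acts on Mdm2 and p53, at 30.7 ± 1.15 and 32.4 ± 1.02 RPKM, and Trp73, whose protein is related to p53, at 24.3 ± 2.97 and 23.9 ± 3.89 RPKM.

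In the Bcl-2 family, where Bax and Bbc3 act, 0 of 14 other members passed in edgeR or limma-voom, and DESeq2 passed 1, Pmaip1. At an unadjusted p below 0.05 in edgeR there were 4, beside 11.5% of all tested genes. Of the 14, Pmaip1 and Bid were already counted among the apoptosis targets above. Besides Pmaip1, the smallest p values were those of Bmf, a BH3-only protein (−0.85, SE 0.27, adjusted p = 0.203), and of Bcl2l2, a survival protein (−0.24, SE 0.09, adjusted p = 0.279). Bok and Mcl1 were the most abundant, at 83.7 ± 8.42 and 71.2 ± 0.993 RPKM in WT and at 78.6 ± 4.69 and 76.1 ± 11.2 RPKM in KO, followed by Bcl2l2 at 16.9 ± 0.446 and 14.3 ± 0.717 RPKM. Among 6 other inhibitors of cyclin-dependent kinases, 0 passed in edgeR, limma-voom and DESeq2 (1 at an unadjusted p below 0.05 in edgeR). Cdkn2b, the inhibitor p15, was at 5.64, 5.77 and 6.22 CPM in WT and at 7.99, 6.94 and 8.80 CPM in KO. All KO libraries were higher, with a difference of 0.43 (SE 0.17, adjusted p = 0.335). Cdkn1b, a relative of Cdkn1a and the most abundant per exon length, at 40.3 ± 5.77 and 37.6 ± 1.94 RPKM, differed by −0.10 (adjusted p = 0.728). Its relative Cdkn1c differed by −0.31 (adjusted p = 0.668), and the INK4 inhibitors Cdkn2d and Cdkn2c by −0.17 and −0.14 (adjusted p = 0.775 and 0.882). Cdkn2a, which also encodes the p53 activator ARF, was below the floor of 3 counts in every library.

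Of 23 genes of nucleotide excision repair, 0 passed in edgeR, limma-voom and DESeq2. In all, 13 were higher and 10 lower in KO, with a median of 0.02 over the list. At an unadjusted p below 0.05 in edgeR, 1 was higher and 4 were lower, beside 11.5% of all tested genes in either direction. Among the lower ones were Xpc, Ddb2 and Ercc5, which were already counted among the repair targets above. Uvssa, a factor of transcription-coupled repair, differed by −0.36 (SE 0.12, adjusted p = 0.229), and Rad23b, a partner of Xpc, by 0.25 (SE 0.09, adjusted p = 0.296). Ddb1, which works with Ddb2, was the most abundant per exon length, at 97.5 ± 5.11 RPKM in WT and 93.9 ± 2.23 in KO. Of 14 proliferation genes, 0 passed in edgeR, limma-voom and DESeq2 (0 at an unadjusted p below 0.05 in edgeR). On average 12 of them were lower in KO, as were 10840 of the 21681 tested genes, with a median of −0.15 over the list. Their summed level was 439, 1076 and 1286 CPM in WT and 770, 747 and 1122 CPM in KO, so WT a was the lowest and the groups overlapped. Ccnb2 and Ccnb1, cyclins of mitosis, were at 5.83 and 6.93 CPM in WT a and between 16.9 and 43.9 CPM in the other 5 libraries. Mcm2 and Mcm5, subunits of the replicative helicase, differed by 0.15 and 0.10 (adjusted p = 0.726 and 0.847), and Cdc20 and Top2a, which act in mitosis, by −0.21 and −0.08 (adjusted p = 0.856 and 0.949). Without WT a, 3 proliferation genes passed.

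Markers were checked for the identity of the sorted cells. Krt5, the keratin of basal keratinocytes, was at 19738 ± 4970 CPM in WT and 19383 ± 1602 CPM in KO. Of 9 keratinocyte markers, 3 were higher and 6 lower in KO, and 2 had an unadjusted p below 0.05 in edgeR, both lower. The HB markers Krt15 and Lgr5, named after the values were seen, did not pass. Only 1 marker passed, the HB marker Cd34, at 881, 806 and 872 CPM in WT and 399, 625 and 526 CPM in KO (−0.72, SE 0.14, adjusted p = 0.0462). Its adjusted p was 0.119 in limma-voom, 0.131 and 0.133 with a filter on low counts, and 0.0685, 0.379, 0.250 and 0.184 without WT b, WT c, KO a and KO c, so the call was lost in each. KO a held the least Cd34 of the 6 libraries, and the most of 5 of the 10 p53 genes (Mdm2, Cdkn1a, Ccng1, Plk2 and Sesn2). Among genes with a mean log2 CPM above 4, KO a was the lowest library for 19.4% and the highest for 27%. In bulk samples fewer cells of a type and less RNA per cell cannot be told apart, and the part of a change in HB cells in the differences above was not tested. The 6 fibroblast markers summed to 116 to 178 CPM in WT and 48.1 to 80.3 CPM in KO, most of it Col1a1 and Col1a2. None of them passed in edgeR or limma-voom, 5 had an unadjusted p below 0.05 (2 higher and 3 lower) and 2 passed in DESeq2, and Col3a1 was at 0 in every WT library. Immune cell markers summed to 9.71 to 12.7 CPM in WT and 7.99 to 13.8 CPM in KO, led by Cd74, with Lyz2 at 0 in WT. Melanocyte markers summed to 6.33 to 13.4 CPM in WT and 10.3 to 11.7 CPM in KO, led by Dct. Endothelial markers summed to 2.38 to 3.57 CPM in WT and 2.64 to 3.52 CPM in KO, led by Kdr in WT and Pecam1 in KO, with Cdh5 at 0 in WT and Emcn at 0 in KO. The part of such cells in the values of the p53 targets was not tested.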

How the data were processed

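Per the labels and the study's methods, the authors sequenced stranded poly(A) libraries as single reads of 65 bases and aligned them with TopHat 2.1.0 (Bowtie 1.1) to mouse build GRCm38 with Ensembl 77 gene models. Uniquely mapped reads were counted per gene by strand with a script of their own. The deposited values are these raw counts, neither normalized nor pooled. Such counting can drop reads that also match a near-identical copy of a gene. Besides Trp53 and Bax, the genes Cdkn1a, Mdm2 and Zmat3 also share near-identical stretches with other genes. The longest of these is 262 identical bases shared by Cdkn1a and AC167363.2, in the opposite orientation.

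From these counts, the 21681 genes with any count were fitted in edgeR 4.0.16 under R 4.3.3 (TMM factors, glmQLFit, glmQLFTest, KO against WT without covariates), with adjustment over all genes by Benjamini-Hochberg. Intervals are 95% intervals of the same fit. The alternatives were limma-voom (limma 3.58.1; TMM factors, or none), DESeq2 1.42.0, edgeR without factors or with those of the upper quartile, a filter by filterByExpr or by a minimum of 10 counts per library, and fits that omit 1 library. RPKM used exon lengths of GENCODE M21, which held 98.9% of the gene identifiers. Of these, 70.1% had the same gene coordinates there as in the count table, so the lengths are approximate. The columns name a genotype and a mouse but not the numbered sample of the labels, and libraries served as unnumbered replicates. The chi-square per degree of freedom between any pair of libraries was 10.1 or more, so none was taken as a duplicate. P-values measure the spread between these libraries.

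The genes and lists were chosen with earlier results of these data known. Named were the 10 genes and Itga3; of each other list the genes that passed, the 3 with the smallest p and the 3 most abundant per exon length; the leading gene of each marker list; and the 3 nearest profiles of Cdkn1a and Mdm2. Any other gene is said to be named after its values were seen or stands as a plain count. Not every gene covered is reported here. The 3 fitting tools were checked on simulated counts.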

Additional observations from a re-analysis of the deposited data

How the results depend on the processing

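All 10 genes stayed higher in KO in all 14 fits. The number of the 10 that passed was 0 in both limma-voom fits and with both filters on low counts, 1 in edgeR without TMM factors or with upper-quartile ones, and 2 in DESeq2, and it ranged from 0 to 2 when 1 library was left out. Plk2 lost its call at nearly the same size (0.70 and 0.69 in limma-voom, 0.69 with either filter), and its difference ranged from 0.57 to 0.81 with 1 library left out. Cdkn1a gained a call in DESeq2 (0.72), and ranged from 0.50 to 0.83. The number of other p53 targets that passed was 0 in both limma-voom fits, in edgeR with either other scaling and with either filter, 5 in DESeq2, and 0 to 4 with 1 library left out (4 without WT a, 3 without KO b). In the Bcl-2 family it was 1 in DESeq2 and 0 to 2 with 1 library left out (2 without WT a, 1 without KO b). The call in DESeq2 and the one without KO b were both Pmaip1, which is also among the other p53 targets. Among proliferation genes the number was 0 to 3 with 1 library left out (3 without WT a). Over all genes, 146 passed, against 24 and 28 in limma-voom, 546 in DESeq2, 15 with filterByExpr and 12 with a minimum of 10 counts, and 5 (without WT c) to 521 (without WT a) with 1 library left out. The Itga3 difference ranged from −1.31 to −1.01 when 1 library was left out. Without scaling for exon length, 8 of the 10 genes changed place in the order of levels, and Phlda3 (105 CPM in WT and 119 CPM in KO) was below Trp53 (167 and 186 CPM) and Cdkn1a (140.1 and 231 CPM). The higher and lower counts and medians of the lists other than the 10 genes were not recomputed under the alternatives. The cause of these changes was not tested. There were 3 libraries per genotype, no untreated skin was analysed here, and the 10 genes had between 149 counts (Bbc3 in WT a) and 6966 counts (Cdkn1a in KO a). No paired analysis was possible because the columns carry no sample number.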

Other observations

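Immediate early genes, which respond to growth factors, stress and the handling of tissue, were listed after the values of the p53 targets had been seen. All 8 (Fos, Fosb, Jun, Junb, Egr1, Atf3, Ier2 and Ier3) were higher on average in KO, with a median log2 difference of 0.31. This held for 50% of all tested genes and for 55.3% of those with a mean log2 CPM above 4. In the edgeR test 0 of the 8 passed (2 at an unadjusted p below 0.05, Junb and Atf3, beside 11.5% of all tested genes). Summed over the list, the WT libraries (a, b and c in turn) gave 13372, 6762 and 8218 CPM and the KO libraries 10920, 12954 and 11032 CPM. WT a was the highest library and WT b the lowest in this sum, and the part of handling or stress in the values of the p53 targets was not tested. Atf3, a stress factor that p53 can also induce, was at 967, 452 and 666 CPM in WT and at 1225, 1003 and 909 CPM in KO, a difference of 0.59 (SE 0.22, adjusted p = 0.305). Junb was at 672, 467 and 454 CPM in WT and at 724, 713 and 677 CPM in KO (0.41, SE 0.14, adjusted p = 0.259), so that its groups did not overlap.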
